A study of Mus musculus with 16 samples.

Results

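The genes described here encode natriuretic peptide and angiotensin signalling components in mouse melanoma. They are Nppb, which encodes brain natriuretic peptide, the processing protease gene Corin, the natriuretic peptide receptor genes Npr1, Npr2 and Npr3, the angiotensin precursor gene Agt, the converting enzyme gene Ace, and the angiotensin II receptor genes Agtr1a and Agtr2. The 9 members were found by their symbols among the non-control probes of the array, each with 1 probe. Of these, 8 were among the 21983 genes and transcripts tested, and Npr1 was not, since its Cy5 signal was above background on 0 of 16 arrays. The set was selected on the log2 ratios of these same arrays, because Nppb was lower at 4 days and Agtr2 was lower at 60 days than in untreated tumours. Those differences are therefore a description, with no test, and nothing is read from them about the set.

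Total RNA of 16 mouse melanoma biopsies was labelled with Cy5 and hybridised to 2-colour arrays, each against the Universal Mouse Reference RNA, a commercial pool labelled with Cy3. The tumours were untreated, treated for 4 days, treated for 60 days, or resistant after 120 days of treatment, with 4 tumours in each group. The series concerns BRAF inhibitors, drugs that block a kinase of the MAPK pathway, but the name of the drug and the strain, genotype, sex and age of the mice are not given in the sources used here. Each value is a log2 ratio of Cy5 over Cy3, and a difference of 1 between groups is a 2-fold difference. The reference RNA cancels in differences between groups, and levels of different genes cannot be set against each other. The biopsies hold all cells of the tissue, so fewer cells of a type and less RNA per cell cannot be told apart.

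Natriuretic peptides are small hormones cut from larger precursors. Atrial and brain natriuretic peptides, known mainly from heart muscle, act on the receptor encoded by Npr1, and C-type natriuretic peptide, which acts in skin, bone and vessels, uses the one encoded by Npr2. Both receptors make the second messenger cGMP, while the receptor encoded by Npr3 removes the peptides. In the opposing system, renin and the converting enzyme release angiotensin II from its precursor, and its type 1 receptor raises vascular tone and stimulates growth of stromal cells. The type 2 receptor, abundant in fetal mesenchyme and scarce in most adult tissues, often counters the type 1 receptor.

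Every group had replicates 3 and 4 on slide 1 and replicates 1 and 2 on slide 2, and array position within a slide followed the group. Between 49.1% and 54.2% of probes were above background in Cy5. All 8 listed melanocyte markers were measured, and the pigment enzyme gene Tyr was above background on 15 of 16 arrays. On the leading principal component, resistant replicate 1 had a score of 91.1, the most extreme, and untreated replicate 3 a score of -19.2, where the remaining untreated tumours scored 33.1 to 57. The sample titles carry codes that differ between groups and may stand for animals or cages, and a different kind of code marks the 4-day tumours, so such an origin cannot be told apart from the group. P-values measure the spread between these tumours, and nothing in the sources used here says which came from separate animals.

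The sequences below identify the transcript measured for Nppb and show the regions before the starts of the genes that gave the set its name. The Nppb probe lies on chromosome 4 of build mm9, at chr4:147360489-147360548 on the plus strand, and carries the symbol Nppb in the array design.
Nppb probe: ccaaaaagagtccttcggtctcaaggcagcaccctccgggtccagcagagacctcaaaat
The 250 bases before the start of Nppb (RefSeq, GRCm38.p6, chr4:147985650-147985899, plus strand) and of Agtr2 (RefSeq, GRCm38.p6, chrX:21484374-21484623, plus strand) were as follows, with matches to the motifs searched in capitals.
Nppb: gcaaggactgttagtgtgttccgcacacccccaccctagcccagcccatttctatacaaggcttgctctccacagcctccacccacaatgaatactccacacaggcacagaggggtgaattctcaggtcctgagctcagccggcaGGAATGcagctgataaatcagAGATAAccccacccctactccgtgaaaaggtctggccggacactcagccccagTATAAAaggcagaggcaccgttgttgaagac
Agtr2: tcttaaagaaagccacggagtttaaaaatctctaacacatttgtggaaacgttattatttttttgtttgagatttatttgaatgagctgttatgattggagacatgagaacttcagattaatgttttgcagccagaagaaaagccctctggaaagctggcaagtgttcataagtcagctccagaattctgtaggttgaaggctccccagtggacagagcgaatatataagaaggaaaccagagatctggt

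The 6 motifs were searched on both strands of promoter windows that run from 250 bases before to 50 after each start. Nppb held a TATA box (TATAAA) with its first base at -31, a GATA-factor site (AGATAA) at -84 and an M-CAT element (CATTCC, here on the opposite strand as GGAATG) at -105, and these matches do not overlap each other. Among 32851 mouse promoters, the TATA box was present in 13.6%, the GATA-factor site in 11.2% and the M-CAT element in 14.7%. The AP-1 site (TGANTCA, in 7.81% of promoters), the cAMP response element (TGACGTCA, in 1.79%) and the E-box (CACGTG, in 7.15%) had no match in the Nppb window, and the Agtr2 window held none of the 6. Windows were matched by symbol for 8 of the 9 members, all but Agtr1a. Agt and Ace also held the TATA box string, in Agt with its first base at -30 and in Ace on the opposite strand at -31. Only the strings given were searched, with N as any base, so variant forms of a site were not counted. A match is a stretch of letters, and no binding was measured.

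The peptide gene Nppb was lowest in the 4-day tumours and highest in the untreated ones. Its log2 ratios were 1.84, 2.61, 4.14 and 2.32 in untreated tumours (replicates 1 to 4), 1.01, 1.15, 0.03 and 0.48 in 4-day tumours, 1.81, 1.66, 0.89 and 1.48 in 60-day tumours, and 1.95, 0.82, 2.68 and 2.51 in resistant tumours. All 4-day and all 60-day values lay below every untreated value, the highest 60-day value only just, and the resistant values overlapped all other groups. Nppb was above background in Cy5 on 16 of 16 arrays.

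**Figure D1:**
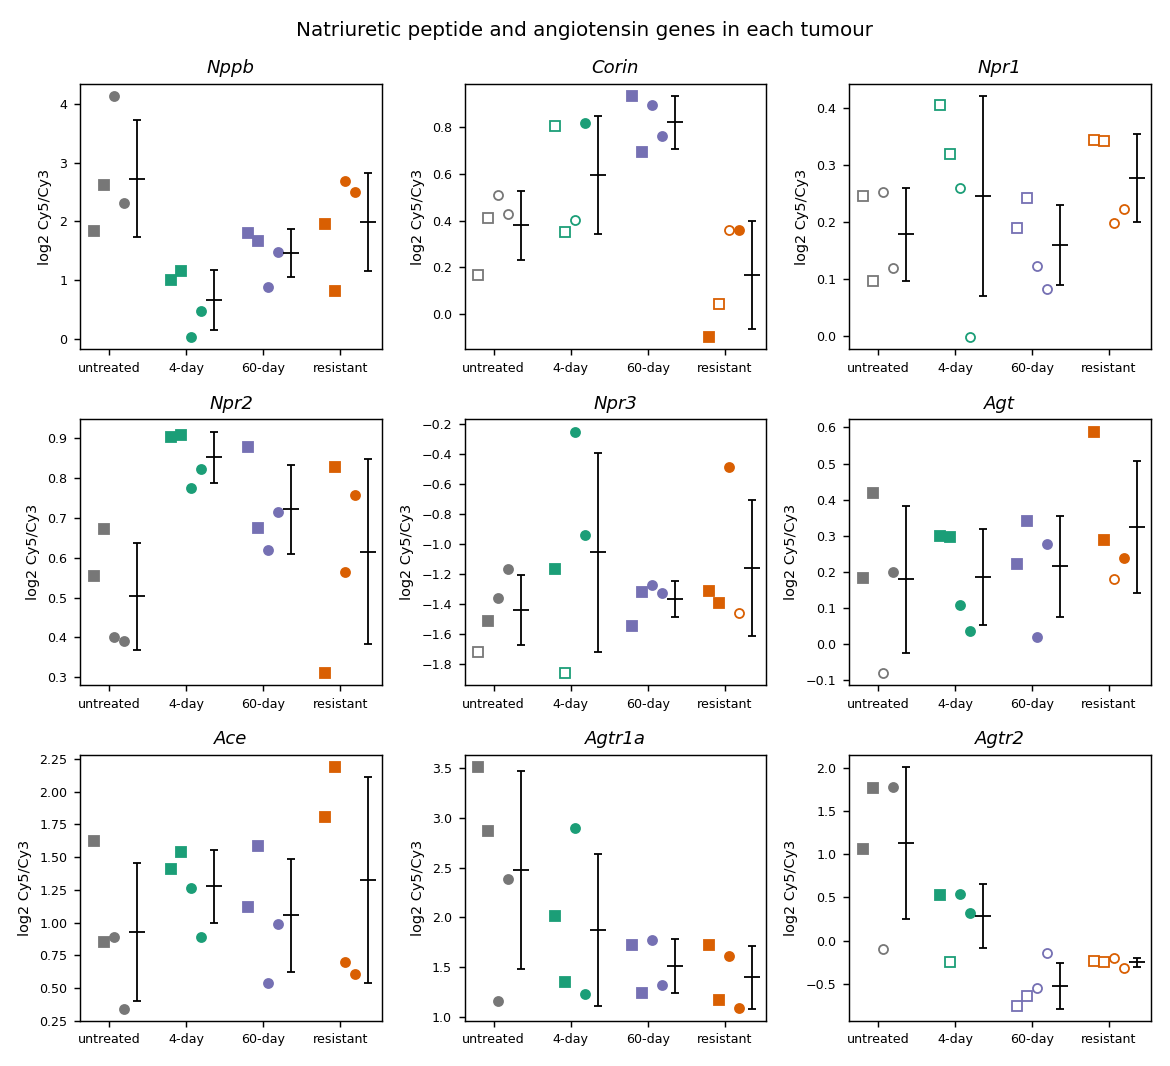
Log2 Cy5 over Cy3 of each of the 9 genes in each tumour, by group from untreated to resistant, with circles for slide 1 and squares for slide 2. Filled symbols are above background in Cy5, and bars are the group mean ± SD (n = 4). Nppb is lowest at 4 days, Agtr2 is above background in 0 of the 60-day and resistant tumours, and vertical scales differ between genes.

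The group means of Nppb were 2.73 ± 0.99 in untreated, 0.67 ± 0.51 in 4-day, 1.46 ± 0.40 in 60-day and 1.99 ± 0.84 in resistant tumours (SD, n = 4 each). The difference of 4-day from untreated tumours was -2.06 ± 0.47 (SE), 4.17-fold, and the 60-day difference was -1.27 ± 0.47. The order of the means ran untreated, resistant, 60-day and 4-day, and the values of neighbours in that order overlapped. Untreated replicate 3, on slide 1, held the highest of all 16 values, and the difference of 4-day from untreated tumours was -2.97 on slide 1 and -1.15 on slide 2. Without that array it was -1.59. The 60-day difference was -2.04 on slide 1 and -0.50 on slide 2, and it was -0.80 without that array.

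The comparison of resistant with 60-day tumours asks whether a gene that is low under treatment differs in resistant tumours, and it uses no array of the choice of Nppb. Resistance cannot be told apart from the longer treatment, of 120 against 60 days. The difference was 0.53 ± 0.47, with a 95% interval of -0.48 to 1.54 (limma, adjusted p = 0.992, exact two-sided permutation p = 0.257). It had opposite signs on the slides, at 1.41 on slide 1 and -0.35 on slide 2. In both groups the tumours on different slides also carry different codes in the titles, so slide and code cannot be told apart. A difference within that interval was not resolved with 4 tumours a group. Resistant tumours had a mean 1.32 ± 0.47 above that of 4-day tumours and 0.74 ± 0.47 below that of untreated tumours, both of which share arrays with the choice and carry no test. Without untreated replicate 3 the resistant difference from untreated tumours was -0.27.

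Agtr2, the type 2 angiotensin II receptor gene (chromosome X, mm9, 21065564 to 21065623), was detected in untreated and 4-day tumours and not in the later groups. Its Cy5 signal was above background in 3 of 4 untreated, 3 of 4 4-day, 0 of 4 60-day and 0 of 4 resistant tumours. The log2 ratios were 1.06, 1.77, -0.09 and 1.78 in untreated tumours, 0.53, -0.24, 0.54 and 0.31 in 4-day tumours, -0.76, -0.64, -0.55 and -0.15 in 60-day tumours, and -0.24, -0.24, -0.20 and -0.32 in resistant tumours. Every 60-day and every resistant value lay below every untreated value, and the highest 60-day value was only just below the lowest untreated one, that of replicate 3. The 4-day values overlapped both the untreated and the later ones.

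Group means of Agtr2 were 1.13 ± 0.88 in untreated, 0.28 ± 0.37 in 4-day, -0.53 ± 0.27 in 60-day and -0.25 ± 0.05 in resistant tumours (SD, n = 4 each). The 60-day difference from untreated tumours was -1.66 ± 0.33, and the resistant difference was -1.38 ± 0.33. Without untreated replicate 3 these were -2.06 and -1.79. The probe was not well above background in 60-day or resistant tumours, so its level there was not resolved. In Cy5 alone, 60-day tumours were 3.25-fold and resistant tumours 2.76-fold below the untreated mean, where the ratio to the reference gave 3.15-fold and 2.60-fold. The dimmest signal above background on each array served as a floor in these Cy5 folds and replaced any lower signal. It lay below all 60-day and resistant signals except that of resistant replicate 4, so only the resistant fold holds a replaced value. The Cy5 folds otherwise rest on undetected signals and are no bounds. The offset added during background correction narrows such differences. The 60-day difference was -2.33 with an offset of 16 in place of 50 and -3.97 with signals processed by Feature Extraction.

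For Agtr2, only the comparison of resistant with 4-day tumours uses no array of its choice. The difference was -0.53 ± 0.33, with an interval of -1.23 to 0.16 (limma, adjusted p = 0.724, exact two-sided permutation p = 0.114, where the smallest p the design allows is 0.0286). It was -0.69 on slide 1 and -0.38 on slide 2. The gene was detected in 3 of 4 of the 4-day and in 0 of 4 of the resistant tumours, and the difference did not pass the test. Agtr2 entered the tests only through untreated and 4-day arrays above background, so its p-values here support nothing.

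**Figure D2:**
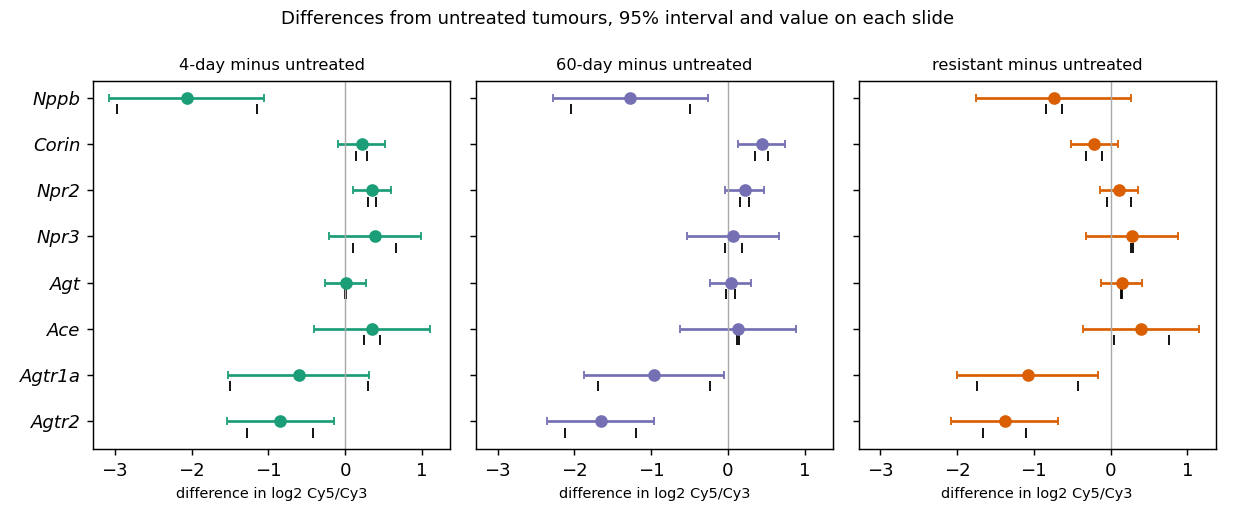
Difference of 4-day, 60-day and resistant tumours from untreated tumours in log2 Cy5 over Cy3 for the 8 members tested, with the 95% interval (4 arrays against 4) and ticks for the value on each slide. Nppb, Agtr1a and Ace have the widest intervals, and the 4-day values of Agtr1a lie on both sides of 0 on the slides. The intervals of Nppb and Agtr2 rest on arrays used to choose them and are no test.

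Agtr1a, the type 1 angiotensin II receptor gene of most mouse tissues (chromosome 13, mm9, 30474638 to 30474697), had its highest values in 3 untreated tumours and 1 4-day tumour. Its log2 ratios were 3.50, 2.86, 1.16 and 2.39 in untreated tumours, 2.01, 1.35, 2.90 and 1.24 in 4-day tumours, 1.73, 1.25, 1.77 and 1.32 in 60-day tumours, and 1.72, 1.17, 1.61 and 1.09 in resistant tumours. Untreated replicate 3 lay below all 60-day values, and the other untreated tumours lay above all 60-day and all resistant values.

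With all arrays no difference of Agtr1a passed. The difference from untreated tumours was -0.60 ± 0.43 at 4 days (adjusted p = 0.541), -0.96 ± 0.43 at 60 days (adjusted p = 0.245) and -1.08 ± 0.43 in resistant tumours (adjusted p = 0.42), by limma with Benjamini-Hochberg adjustment. On slide 1, which holds untreated replicate 3, these differences were 0.29, -0.23 and -0.42, and on slide 2 they were -1.50, -1.70 and -1.74. Without untreated replicate 3 the 60-day difference was -1.40 and passed (limma, adjusted p = 0.0442), and the resistant difference was -1.52 and did not (adjusted p = 0.0725). With resistant replicate 1 left out as well, the resistant difference was -1.63 and passed (limma, adjusted p = 0.0348). Both arrays stood out in these same data, and they hold the lowest untreated and the highest resistant value of Agtr1a. Leaving them out therefore enlarges the differences, and the passing is given as a description only. The means ran untreated, 4-day, 60-day and resistant from high to low, and the values of neighbours overlapped. Between resistant and 60-day tumours the difference was -0.12 ± 0.43 (interval -1.04 to 0.80).

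Untreated replicate 3 thus held the highest Nppb value and the lowest untreated values of both receptor genes. The 8 fibroblast markers, all measured, had a mean log2 ratio of 2.85 in that tumour and 4.09 to 4.36 in the other untreated tumours. The 8 skeletal muscle markers had 0.83 there and 2.88 to 3.66 in the others. The means of the 8 mural cell markers (0.48, against 0.98 to 1.25), the 8 endothelial markers (1.43, against 1.84 to 2.17) and the 8 nerve and Schwann cell markers (1.86, against 2.50 to 2.91) were also the lowest untreated ones there. The hair follicle mean, at 3.43, was the highest. Its melanocyte, keratinocyte, macrophage, adipocyte and mast cell means lay within the range of the other untreated tumours. Over the groups, the fibroblast mean ranged from 2.85 to 4.36 in untreated, 2.70 to 4.19 in 4-day, 3.19 to 3.69 in 60-day and 3.07 to 4.20 in resistant tumours, so that all groups overlapped. The part of these cells in the receptor values was not tested.

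**Figure D3:**
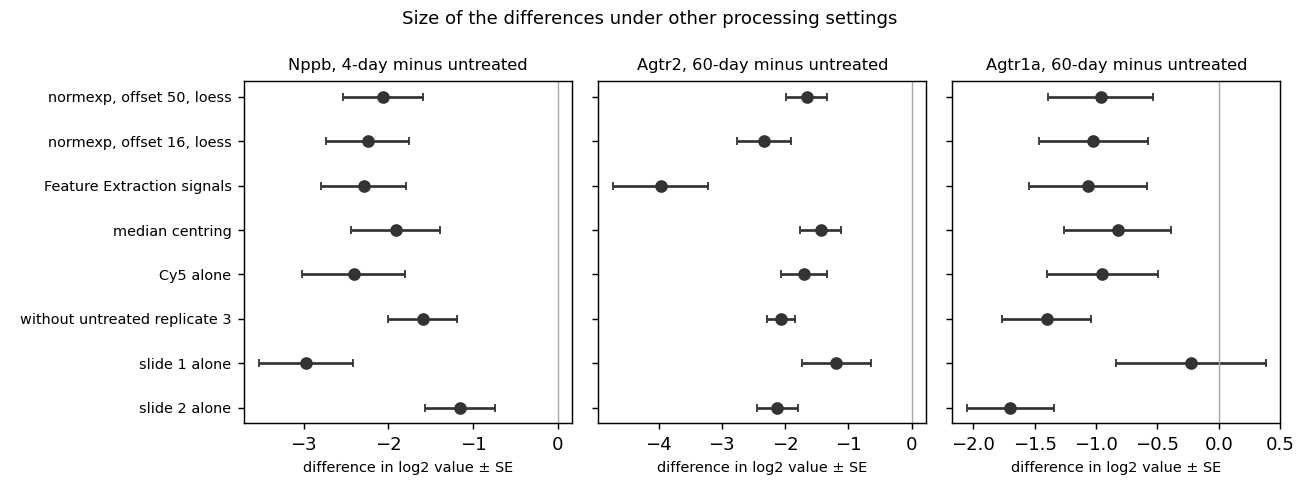
Difference in log2 value ± SE for Nppb at 4 days and for Agtr2 and Agtr1a at 60 days, each against untreated tumours, under 8 processing settings (rows). The difference of Agtr2 reaches -3.97 with Feature Extraction signals, and that of Agtr1a is -0.23 on slide 1 alone and -1.70 on slide 2 alone.

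Corin, the membrane protease gene whose product cleaves the atrial and brain natriuretic peptide precursors, gave low signals that were highest in 60-day tumours (chromosome 5, mm9, 72692288 to 72692347). Cy5 was above background in 0 of 4 untreated, 1 of 4 4-day, 4 of 4 60-day and 2 of 4 resistant tumours. The log2 ratios were 0.16, 0.41, 0.51 and 0.43 in untreated tumours, 0.81, 0.35, 0.40 and 0.82 in 4-day tumours, 0.94, 0.69, 0.90 and 0.76 in 60-day tumours, and -0.10, 0.04, 0.36 and 0.36 in resistant tumours. Every 60-day value lay above every untreated and every resistant value. Reference RNA was above background on only 2 of 16 arrays, so the ratio has a dim denominator.

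The 60-day difference of Corin from untreated tumours was 0.44 ± 0.14 (limma, adjusted p = 0.132), and the difference of resistant from 60-day tumours was -0.66 ± 0.14 (adjusted p = 0.868). In Cy5 alone 60-day tumours were 1.48-fold brighter than untreated tumours, whose signals were not above background. Corin entered the tests through the 60-day tumours, which gave 4 of the 7 arrays above background, so its 60-day test supports nothing. Corin is known in skin from the dermal papilla of the hair follicle in mouse. The 8 listed hair follicle genes, all measured, had a mean log2 ratio of 1.14 to 3.43 in untreated, 3.14 to 4.43 in 4-day, 3.53 to 4.03 in 60-day and 1.17 to 3.54 in resistant tumours. Means of the 8 melanocyte markers (3.16 to 3.76 in 60-day and 2.31 to 2.73 in untreated tumours) and of the 8 keratinocyte markers (3.95 to 4.58 in 60-day and 3.47 to 3.85 in untreated tumours) did not overlap between these groups either. Over the 16 arrays Corin and the hair follicle mean had Pearson's r of 0.676 and Spearman's rho of 0.674, and r was 0.475 after group means were removed. The points share arrays and the reference, and the part of hair follicles or other skin cells in the Corin and Agtr2 values at 60 days was not tested.

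**Figure D4:**
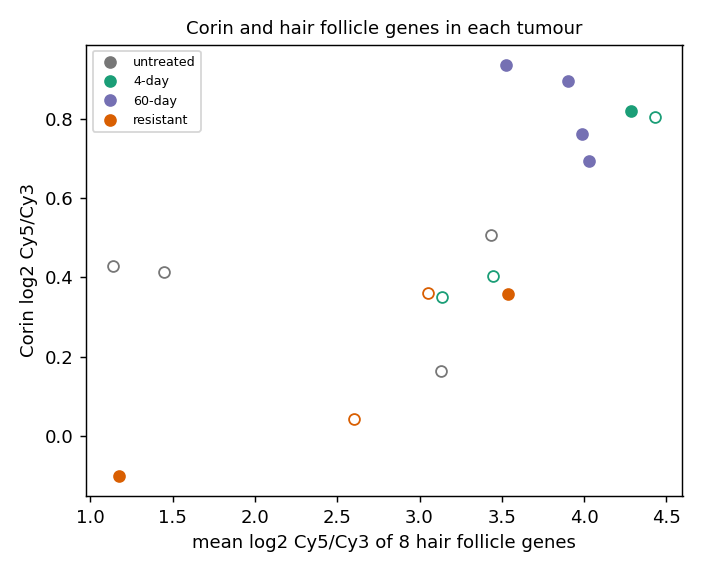
Corin (vertical axis) against the mean of 8 hair follicle genes (horizontal axis), both log2 Cy5 over Cy3, 1 point per tumour and filled where Corin is above background in Cy5. The 60-day tumours lie at the upper right, with hair follicle means of 3.53 to 4.03, and resistant replicate 1 lies at the lower left.

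Of the receptor genes of the natriuretic peptides, only Npr2 was measured brightly on all arrays. Npr2, on chromosome 4 (mm9, 43664035 to 43664094), had log2 ratios of 0.55, 0.67, 0.40 and 0.39 in untreated tumours, 0.90, 0.91, 0.78 and 0.82 in 4-day tumours, 0.88, 0.67, 0.62 and 0.72 in 60-day tumours, and 0.31, 0.83, 0.56 and 0.76 in resistant tumours. All 4-day values lay above all untreated values, and the other groups overlapped both. The 4-day difference from untreated tumours was 0.35 ± 0.12 (interval 0.10 to 0.60) and did not pass (limma, adjusted p = 0.162). The 60-day difference was 0.22 ± 0.12 (adjusted p = 0.34), and the resistant one 0.11 ± 0.12 (adjusted p = 0.83).

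Npr3, the clearance receptor gene (chromosome 15, mm9, 11769937 to 11769996), was lower in the tumours than in the reference RNA on every array. Its log2 ratios were -1.72, -1.51, -1.36 and -1.16 in untreated tumours, -1.16, -1.86, -0.25 and -0.94 in 4-day tumours, -1.54, -1.32, -1.27 and -1.32 in 60-day tumours, and -1.31, -1.39, -0.49 and -1.46 in resistant tumours. The groups overlapped in every comparison, and the highest values were those of replicate 3 in the 4-day and resistant groups. The 4-day difference from untreated tumours was 0.39 ± 0.28 (limma, adjusted p = 0.554), the largest of its 6 differences. Npr1 had log2 ratios between -0.0026 and 0.41 with neither channel above background on any array, so its level has only an upper bound.

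The precursor gene Agt (chromosome 8, mm9, 127083142 to 127083201) was at a similar ratio in all groups, with means of 0.18 ± 0.20 in untreated, 0.18 ± 0.13 in 4-day, 0.21 ± 0.14 in 60-day and 0.32 ± 0.18 in resistant tumours (SD, n = 4 each). Its values ran from -0.08 to 0.59 over the 16 arrays, and the groups overlapped in each comparison. The probe was dim, with a mean log2 intensity of 6.77 beside 6.70 for Agtr2, and Cy5 was above background on 14 of 16 arrays. With Feature Extraction signals the ratios ran from -0.45 to 1.14. The offset narrows ratios of dim probes, so similar means do not show that the level was unchanged. The largest of its 6 differences, resistant minus untreated, was 0.14 ± 0.13, with an interval of -0.13 to 0.42.

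Ace, the converting enzyme gene (chromosome 11, mm9, 105850398 to 105850457), varied more within groups than between them. Its log2 ratios were 1.62, 0.85, 0.89 and 0.34 in untreated tumours, 1.41, 1.54, 1.26 and 0.89 in 4-day tumours, 1.12, 1.58, 0.54 and 0.99 in 60-day tumours, and 1.81, 2.19, 0.70 and 0.61 in resistant tumours. The resistant values fell apart by slide, with 1.81 and 2.19 on slide 2 and 0.70 and 0.61 on slide 1, and these pairs also carry different codes in the titles. The resistant difference from untreated tumours was 0.40 ± 0.35 (limma, adjusted p = 0.786), with 0.04 on slide 1 and 0.76 on slide 2.

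Counted over the members, 1 of 8 passed an adjusted p of 0.05 at 4 days (Nppb) and 1 of 8 at 60 days (Agtr2), each against untreated tumours and each through the values that chose it. Both calls ended when any 1 of several arrays was left out. Over all genes tested, 1.34% passed at 4 days and 0.814% at 60 days. In the other 4 comparisons 0 of 8 passed in limma, against 0.0182% of all genes for resistant minus untreated, 0.00455% for resistant minus 4-day, and 0% for resistant minus 60-day and 60-day minus 4-day. At an unadjusted p under 0.05 there were 3, 4 and 2 members for 4-day, 60-day and resistant tumours against untreated ones, 2 and 1 for resistant against 4-day and 60-day tumours, and 1 for 60-day against 4-day tumours. The same cut held 3673, 4111, 2097, 1801, 1248 and 413 of all genes. The groups did not overlap for 2 members at 4 days (7% of all genes), 3 at 60 days (13.8%), 1 in resistant tumours against untreated (4.29%) and 1 in resistant against 60-day tumours (3.63%), and they overlapped for all 8 in resistant against 4-day tumours (2.77% of all genes did not) and in 60-day against 4-day tumours (1.68%). The median difference of the 8 members from untreated tumours was 0.11 at 4 days, 0.05 at 60 days and -0.05 in resistant tumours, against -0.01, 0.00 and 0.01 over all genes. These counts and medians include Nppb and Agtr2, in part through the values that chose them, and nothing is read from them.

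Around these members, 28 further genes of the pathways were listed by role, and 25 were tested. Of the 7 genes of natriuretic peptides, their processing and breakdown, 6 were tested. Of the 11 further renin-angiotensin genes, 9 were tested, and of the 10 genes that make, bind or break down cGMP or act after it, all 10 were. By limma, 0 of 25 passed in any of the 6 comparisons. At an unadjusted p under 0.05 there were 7 at 4 days, 8 at 60 days and 2 in resistant tumours against untreated ones, 4 and 2 in resistant tumours against 4-day and 60-day ones, and 0 at 60 days against 4 days, beside the 3673, 4111, 2097, 1801, 1248 and 413 of all 21983 genes. Their median difference from untreated tumours was 0.06 at 4 days, 0.04 at 60 days and 0.13 in resistant tumours, against -0.01, 0.00 and 0.01 over all genes.

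In the peptide list, the largest differences from untreated tumours at 4 and 60 days were those of Pcsk6, a proprotein convertase gene whose product activates corin. Its log2 ratios were 0.67, -0.06, 0.84 and -0.21 in untreated tumours, 1.66, 1.17, 1.01 and 1.58 in 4-day tumours, 1.73, 1.92, 1.65 and 1.25 in 60-day tumours, and -0.49, 1.35, 1.42 and 1.53 in resistant tumours. All 4-day and 60-day values lay above all untreated ones, and resistant replicate 1 was the lowest of all. The difference from untreated tumours was 1.05 ± 0.38 at 4 days (adjusted p = 0.196) and 1.33 ± 0.38 at 60 days (adjusted p = 0.0994), which did not pass in limma. Ide, which encodes insulin-degrading enzyme, had 0.65 ± 0.36 at 4 days and 0.81 ± 0.36 at 60 days (adjusted p = 0.387 and 0.244).

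The other natriuretic peptide genes did not pass either. Nppc, the gene of C-type natriuretic peptide, had 0.58 ± 0.28 at 4 days, 0.46 ± 0.28 at 60 days and -0.59 ± 0.28 in resistant tumours against untreated ones (limma, adjusted p = 0.318, 0.418 and 0.535). Its 60-day values of 1.42 to 1.82 lay above its untreated values of 0.83 to 1.40, and in resistant tumours it was above background on 1 of 4 arrays. Its resistant values lay below all 60-day ones, with a difference of -1.05 ± 0.28 from 60-day and -1.18 ± 0.28 from 4-day tumours, and neither passed (limma, adjusted p = 0.868 and 0.395). Nppa, the gene of atrial natriuretic peptide, had log2 ratios of -0.46 to -0.25 over all 16 arrays and differences of -0.04 to 0.02 from untreated tumours.

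**Figure D5:**
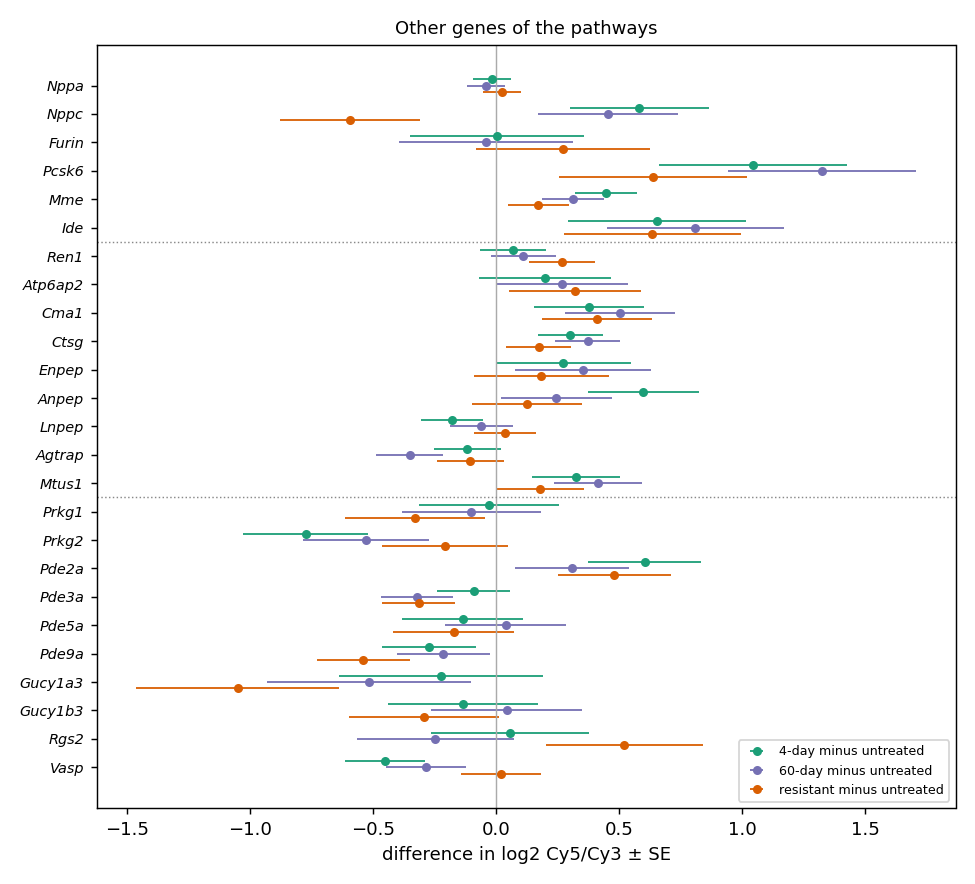
Differences from untreated tumours in log2 Cy5 over Cy3 ± SE for the 25 further pathway genes tested, with 4-day, 60-day and resistant tumours in separate colours. Dotted lines separate genes of peptides and their processing (top), renin-angiotensin genes (middle) and cGMP genes (bottom), and 0 of 25 passed.

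Among the renin-angiotensin genes, Anpep, an aminopeptidase gene, had log2 ratios of 1.81, 1.83, 1.12 and 1.38 in 4-day tumours, against 1.35, 1.06, 0.86 and 0.46 in untreated tumours. The groups overlapped, and the difference was 0.60 ± 0.22 (limma, adjusted p = 0.203). Cma1, the mast cell chymase gene whose product also makes angiotensin II, had 0.50 ± 0.22 at 60 days (limma, adjusted p = 0.244). Mtus1, whose product binds the type 2 receptor, had 0.41 ± 0.18 at 60 days (limma, adjusted p = 0.235), and its other probe gave 0.28. Ren1, the renin gene, was above background on 8 of 16 arrays, with differences of 0.07, 0.11 and 0.27 from untreated tumours at 4 days, at 60 days and in resistance, each ± 0.13.

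Of the cGMP genes, Prkg2, a cGMP-dependent kinase gene, had a difference of -0.77 ± 0.26 at 4 days and -0.53 ± 0.26 at 60 days (limma, adjusted p = 0.154 and 0.284). The 60-day difference of Prkg2 was -1.06 on slide 1 and 0.0031 on slide 2. Its 4-day log2 ratios were -4.11, -3.83, -4.21 and -4.01, against -3.84, -3.40, -2.50 and -3.32 in untreated tumours, of which replicate 3 was the highest. Pde2a, which encodes a phosphodiesterase stimulated by cGMP, had 0.60 ± 0.23 at 4 days (adjusted p = 0.211). Gucy1a3, a subunit gene of the soluble guanylyl cyclase that RefSeq now calls Gucy1a1, had -0.51 ± 0.41 at 60 days and -1.05 ± 0.41 in resistant tumours (adjusted p = 0.551 and 0.415), with 0.26 and -0.33 on slide 1 and -1.29 and -1.77 on slide 2.

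The genes whose log2 ratios ran most like each member over the 16 arrays were taken from the 15893 with a RefSeq symbol, and such a ranking is a description. For Nppb they were Arhgap22 (Pearson's r = 0.908), F2r (0.874), Socs1 (0.865), Stpg4 (0.853) and Srsf9 (0.848). F2r encodes a thrombin receptor and Socs1 an inhibitor of cytokine signalling. Without the arrays farthest from the median of Nppb, untreated replicate 3 and 4-day replicate 3, the values were 0.893, 0.797, 0.70, 0.914 and 0.815.

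For Agtr2 the most alike were Stk3 (r = 0.925), Myl9 (0.893), Gm5526 (0.878), Tmem225 (0.875) and Neurl1a (0.871), and Myl9 encodes a myosin light chain of smooth muscle. Without untreated replicates 2 and 4 these were 0.815, 0.743, 0.769, 0.826 and 0.755. For Agtr1a they were Fsd1l (0.936), Hspa12b (0.921) and Gucy1a2 (0.919), the last of which encodes another subunit of soluble guanylyl cyclase. For Corin they were Cybrd1 (0.886), Kif21a (0.878) and Skint4 (0.872, over 15 arrays), and for Npr2 Mettl26 (0.913), Wdr31 (0.906) and Aldh3a1 (0.896).

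For Npr3 they were Lpin1 (0.913), Pdcl3 (0.86) and BC107364 (0.852, over 15 arrays). Without replicate 3 of the 4-day and resistant groups they were at 0.822, 0.535 and 0.443. For Agt they were Cpd (0.881), Mir22hg (0.869) and 1700095A13Rik (0.852), and for Ace Ccnt1 (0.896), Galnt16 (0.886) and 4930404N11Rik (0.865). All of these values share the arrays and the reference RNA.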

How the data were processed

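Tumour RNA (Cy5) and reference RNA (Cy3) were read by Agilent Feature Extraction 10.7.3.1, which gave an intensity and a local background per spot and channel, per the file headers. Processed intensity, log10 ratios and other columns (flags of 0 or 1) stand beside them, per the file headers. In the deposited table the values are log2 ratios, with a slope of 0.993 against those log10 ratios turned to base 2. Its array medians lay between -0.194 and -0.0638, so it was not centred, and 21.6% to 40.2% of its values per array were missing.

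Mean intensities were corrected by normexp (offset 50) and normalized by loess within arrays (limma 3.58.1, R 4.3.3). Spots flagged as outliers, 0.55% of values, were left out. A probe was kept if above background in Cy5 on at least 4 of 16 arrays (30501 of 55681 probes), and each gene used its probe with the highest mean intensity, which gave 21983 genes. The 4 groups were fitted in 1 limma model, with 6 comparisons and Benjamini-Hochberg adjustment over all genes at a threshold of 0.05. The model was tested on simulated data. Folds in Cy5 alone came from values after loess and Aquantile and are open to dye bias, since all arrays have the same dye orientation. Alternatives covered background, normalization, channel, filter, slide, array weights and left-out arrays.

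Named were all members, every listed pathway gene past the threshold, the 3 with the largest 4-day or 60-day difference in each list, Ren1, Nppa and Nppc, and the genes most alike. One further gene of the rule is not reported here and is left out of the list counts. The members and lists were chosen with earlier results of these data known. The number of arrays limits the precision.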

Additional observations from a re-analysis of the deposited data

Results flagged for a closer look

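Among the 36 groups of 4 tumours examined (9 genes in 4 groups), 1 held a tumour far from the others. Npr3 in resistant replicate 3 had a log2 ratio of -0.49, against -1.46 to -1.31 in the other resistant tumours, a gap of 0.849 of the range of the group. Chance sets apart about 1 in 20 groups under this rule.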

How the results depend on the processing

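At 4 days the count of members passing was 1, and it was 0 with Feature Extraction signals, with median centring, for Cy5 alone, in the deposited table, with no filter or with only the 2 groups compared. It was 5 with array weights and 2 without untreated replicate 3 and resistant replicate 1 together. At 60 days the count was 1, and it was 0 with median centring and 3 with array weights or without those 2 arrays. It was also 0 in the deposited table and with a filter of 8 arrays, where Agtr2 gave no value and could not pass. For resistant against untreated tumours the count was 0, and it was 2 with array weights or without those 2 arrays. Leaving out 1 array gave 0 to 1 members at 4 days, 0 to 2 at 60 days, 0 to 1 for resistant minus untreated and 0 in the other comparisons. At 4 days the call of Nppb was kept only without resistant replicate 1, 2 or 3. At 60 days that of Agtr2 was lost without 4-day replicate 1, any 60-day replicate or untreated replicate 1, 2 or 4. The share of all genes that passed in each of these fits is not given here, so nothing about the members is read from the counts. The causes of the other changes were not tested.

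For Nppb, resistant minus 60-day tumours was 1.41 on slide 1, -0.35 on slide 2 and 0.30 to 0.92 without 1 array. For Agtr2, resistant minus 4-day tumours was -0.71 to -0.45 without 1 array. Both stayed short of the threshold in every fit run.

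With array weights, Corin (0.35) and Npr2 (0.33) passed at 4 days, Agtr1a (-0.87, -1.24 and -1.53) at 4 days, at 60 days and in resistance, and Corin (0.45) at 60 days. The weights were estimated from these same arrays, and Corin also entered the tests through the 60-day tumours. Each of these passings is therefore given as a value only.

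On single slides Agtr1a at 4 days, which passed with array weights, was 0.29 on slide 1 and -1.50 on slide 2. Outside single slides, the sign turned only in the following differences of Corin, Npr3, Agt and Ace, which passed in no setting run. Corin in resistant minus untreated tumours was 0.16 with Cy5 alone. Npr3 in resistant minus 60-day tumours was -0.026 with Feature Extraction signals and -0.026 in the deposited table. Agt at 4 days was -0.00174 with median centring, -0.028 with array weights and -0.082 without both outlying arrays. Agt at 60 days was -0.013 for Cy5 alone, -0.046 by array weights and -0.052 without both outlying arrays, and -0.031 in resistant tumours without them. Agt in 60-day minus 4-day tumours was -0.043 with Feature Extraction signals, -0.042 in the deposited table, -0.032 for Cy5 alone and -0.018 by array weights. Ace in resistant minus 4-day tumours was -0.077 with median centring, -0.10 in the deposited table, -0.012 for Cy5 alone, -0.24 by array weights and -0.11 without both outlying arrays. Ace in resistant minus 60-day tumours was -0.00171 with array weights. Leaving out 1 array gave ranges across 0 for Npr3 (60-day minus untreated -0.020 to 0.16, resistant minus 4-day -0.38 to 0.16, resistant minus 60-day -0.022 to 0.30), Agt (4-day minus untreated -0.082 to 0.084, 60-day minus untreated -0.052 to 0.11, 60-day minus 4-day -0.019 to 0.095) and Ace (60-day minus untreated -0.063 to 0.36, resistant minus 4-day -0.24 to 0.29, resistant minus 60-day -0.018 to 0.51).

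No paired analysis was possible because the replicate numbers follow sample order and pair no tumours. With the slide as a block the counts did not change. Corin and Agtr2 gave no value in the deposited table or with a filter of 8 arrays, and the counts were not run on each slide alone. Dim probes (Agtr2, Corin, Npr1 and Agt) limit what can be resolved, and their ratios depend on the offset.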
